A study of Mus musculus with 10 samples.

Results

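The nuclear-encoded subunits of the oxidative phosphorylation complexes were examined in bulk RNA-seq of mouse neuroretina. They were chosen by gene symbol, with earlier results of these data known. The families are Nduf (a, b, c, s and v), Sdh, Uqcr with Cyc1, Cox4 to Cox8, and Atp5. The pattern matched 98 of the 57186 rows of counts. Of these, 8 rows whose symbols carry the suffix -ps, with or without a number, were left out, which leaves 90 rows under 89 symbols, Atp5o being listed under 2 identifiers. Ndufb1-ps, with 14928 counts, holds nearly all of the 14952 counts left out, and its annotated class is a long non-coding RNA, not a processed pseudogene. Complex I has 40 of the 90 rows, complex II 4, complex III 9, complex IV 19 and complex V 18. A count in at least 1 library was found for 87 rows, and 83 passed the low-count filter and were tested (37, 4, 9, 16 and 17 in complexes I to V). Ndufb4c, Cox8c and the second Atp5o row were at 0 in every library. Over the pooled 44317412 counts that allows each of them at most 0.0677 CPM (a count relative to the size of its library), for counting error only. Ndufa11b, Ndufs6b, Cox6c2 and Cox7b2 were too scarce to be tested.

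Oxidative phosphorylation takes place at the inner membrane of mitochondria. Complexes I and II pass electrons from NADH and succinate to ubiquinone, complex III passes them to cytochrome c, and complex IV passes them to oxygen. Complexes I, III and IV pump protons, and complex V, the ATP synthase, uses the proton gradient to make ATP. Each complex but complex II also contains subunits encoded by mitochondrial DNA, while complex II is wholly nuclear-encoded and is at the same time an enzyme of the tricarboxylic acid cycle. In the retina, mitochondria are packed in the inner segments of photoreceptors, which spend much of their ATP on ion pumping.

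The CNP group consisted of neuroretinas taken 14 days after an intravitreal injection of 1 µL of graphitic carbon nitride nanoparticles (hg-C3N4, called CNP) (1 mg/mL, diluted in the buffered saline PBS), and the control group received PBS alone. All animals were female C57BL6/JRj mice, and both groups share the injection. Each group has 5 libraries, named here by their label numbers (PBS 2, 6, 10, 14 and 18; CNP 4, 8, 12, 16 and 20). The labels do not state whether every library is from an animal of its own, so p-values measure the spread between these libraries.

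Total counts ranged from 3328518 to 5428697 per library, so that a count of 0 in 1 library allows 0.553 to 0.901 CPM, for counting error only. The tissue label was matched by its markers: summed CPM of 13 rod photoreceptor genes ran from 75154 to 136461 and that of 18 genes of other retinal neurons and Mueller glia from 7016 to 8853. Lens genes (11 listed) summed to between 207 and 8050 CPM, retinal pigment epithelium genes (10 listed) to between 279 and 1381 CPM, red blood cell genes (5 listed) to between 77.9 and 154 CPM, and endothelial and mural cell genes (8 listed) to between 84.8 and 125 CPM. In whole tissue, fewer cells of a type and less RNA per cell cannot be told apart.

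The subunits were among the most abundant transcripts of the tissue. Their share of all counts was 3.81% ± 0.44 in the PBS libraries and 3.97% ± 0.41 in the CNP libraries (SD, n = 5 each). Levels between genes were compared as CPM per kilobase of the longest annotated transcript. Library primers carried molecular identifiers, and whether counts of this assay grow with transcript length is not stated. Where they do not, division by length raises short transcripts relative to long ones. Levels and ranks per kb therefore hold on that scale only. On that scale the median over the 83 tested subunits was 284 against 6.04 over all tested genes. Of 11347 genes with a length, the top 10% held 70 of the 83 subunits and the top 1% held 19. Ndufa4, a subunit first assigned to complex I and now placed in complex IV, ranked 15th in the tissue at 2752 CPM per kb. By its symbol, Ndufa4 is counted in complex I here.

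The median level per subunit was lowest for complex II. Averaged over the 10 libraries, the median over a complex's subunits was 438 CPM per kb for complex III, 326 for complex IV, 316 for complex I, 283 for complex V and 123 for complex II. The SD over libraries was 101, 41.2, 52.0, 48.8 and 5.61 in the same order. Complex III exceeded complex IV, and complex V exceeded complex II, by more than either SD. The steps from complex IV to I and from I to V were smaller than the SDs, and the order of these 3 and complex III changed with the length used. With the median transcript length the medians were 935 for complex IV, 871 for complex III, 642 for complex V, 595 for complex I and 265 for complex II. Complex II stayed lowest under each of the 4 alternatives run. The highest tested gene of a complex exceeded the lowest by 436-fold in complex I, 354-fold in V, 274-fold in IV, 18.7-fold in III and 1.83-fold in II. The value for complex I is that of Ndufa4 over its paralogue Ndufa4l2, both counted there by symbol. Without these 2, complex I ran from Ndufs1 at 33.3 to Ndufa1 at 1722 CPM per kb.

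**Figure D1:**
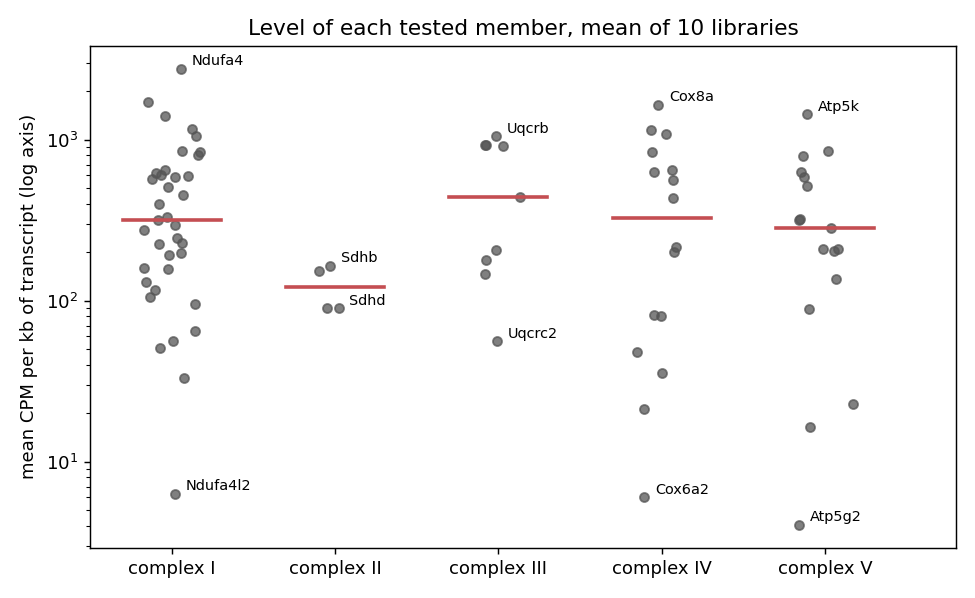
Level of each tested subunit by complex, in mean CPM per kb of transcript over the 10 libraries on a log axis, with 1 point a gene and the median as a line. Complex II is confined to the range from 89.6 to 164, while complexes I, III, IV and V each hold subunits above 1000.

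The most abundant subunit of complex I after Ndufa4 was Ndufa1, a small membrane-arm subunit, at 1722 CPM per kb. The lowest tested was Ndufa4l2, a paralogue of Ndufa4, at 6.31. In complex II, Sdhb, the iron-sulfur subunit, had 164 CPM per kb and Sdha, the flavoprotein that oxidises succinate, had 153, followed by the membrane anchors Sdhc at 90.6 and Sdhd at 89.6. Complex III was led by the small subunits Uqcrb at 1045 and Uqcrq at 932 CPM per kb, and its lowest was the core protein Uqcrc2 at 55.9. In complex IV, Cox8a had 1647 and Cox4i1, the ubiquitous form of subunit 4, had 1154 CPM per kb, against 6.0 for Cox6a2. In complex V, Atp5k, a small subunit of the membrane part, had 1435, the catalytic beta subunit Atp5b had 792 and Atp5g2 had 4.06 CPM per kb. The top gene per kb of complexes I, III, IV and V (Ndufa4, Uqcrb, Cox8a and Atp5k) has a short coding sequence, of 207 to 333 bases. Ranking per kb itself favours short transcripts. By plain CPM, Ndufa4 (3390) and Cox8a (906) stayed highest in complexes I and IV. Complex III was then led by Uqcrq (1417, Uqcrb 590) and complex II by Sdha (444, Sdhb 202). Complex V was led by Atp5b, with a coding sequence of 1587 bases (1518 CPM, Atp5k 808).

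Several subunits have tissue isoforms, and in each family 1 or 2 genes supplied most of the counts. Among counts of a family over all libraries, Cox4i1 held 93.6% (95% Clopper-Pearson interval 93.4 to 93.8) and the lung-enriched isoform Cox4i2 held 6.39% (6.15 to 6.63). Cox6a1 held 99.4% (99.4 to 99.5), and the striated-muscle isoform Cox6a2 held 0.553% (0.472 to 0.644). Cox6b2, a testis isoform, held 3.50% (3.22 to 3.80) beside Cox6b1. Of the Cox7a family, Cox7a2 held 82.8% (82.4 to 83.2), the supercomplex factor Cox7a2l 13.8% (13.4 to 14.2) and the muscle isoform Cox7a1 3.37% (3.17 to 3.59). Cox8b, the form of heart and skeletal muscle, held 1.27% (1.16 to 1.39) beside Cox8a. Cox7b2 held 0.127% (0.0634 to 0.227) beside Cox7b, and Ndufa4l2 0.190% (0.168 to 0.214) beside Ndufa4. The 3 genes that encode the same mature subunit c of ATP synthase split as 59.3% Atp5g1 (58.8 to 59.9), 40.2% Atp5g3 (39.7 to 40.8) and 0.431% Atp5g2 (0.361 to 0.511). These shares are of counts, without division by length, and the intervals cover counting error only. For most isoforms the group means lay within the SDs: Cox4i2 had 6.15% ± 0.69 in PBS against 6.59% ± 0.50 in CNP, and Atp5g1 had 59.9% ± 3.42 and 59.3% ± 2.72 (SD, n = 5 each). The Cox6a2 share was 0.347% ± 0.095 in PBS and 0.805% ± 0.934 in CNP, where CNP 12 had 2.47%, and that of Cox7b2, with 11 counts in all, was 0.186% ± 0.231 and 0.0735% ± 0.110.

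The design sets CNP against PBS. No subunit was called: with edgeR's quasi-likelihood test, 0 of 83 subunits passed an adjusted p of 0.05 in either direction, where 0 of 11499 genes (0%) were called. At an unadjusted p under 0.05 there were 0 subunits, against 137 genes (1.19%). The count was 1, Cox6a2, with no low-count filter (unadjusted p = 0.0305, edgeR), without CNP 8 (0.0380) and without CNP 16 (0.0466). For 0 subunits did the CPM ranges of the groups fail to overlap, against 33 genes (0.287%). The smallest adjusted p of any subunit was 0.9997. DESeq2 and limma-voom also called 0 subunits.

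The estimates were tight for most subunits. The 95% interval of the CNP/PBS ratio lay within 2-fold in either direction for 81 of 83 subunits (97.6%; 94.2% of all genes) and within 1.5-fold for 74 (89.2%; 65.3% of all genes). Both exceptions to the 2-fold bound, Cox6a2 and Cox8b, are scarce muscle isoforms. The fold changes were slight and their signs did not hold under every alternative. The log2 fold change was above 0 for 65 subunits (78.3%; 48.8% of all genes), with a median of 0.045 against -0.004 over all genes. With library number above 10 as a covariate, only 30 of the 83 were above 0, and the count was 29 without PBS 2, 37 without PBS 6, 40 without CNP 12 and 37 without CNP 16. Under the other alternatives it ran from 59 (without PBS 10) to 78 (without PBS 14). By complex the median was 0.045 in I (30 above 0, 7 below), 0.036 in II (3 and 1), 0.044 in III (7 and 2), 0.058 in IV (14 and 2) and 0.013 in V (11 and 6).

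**Figure D2:**
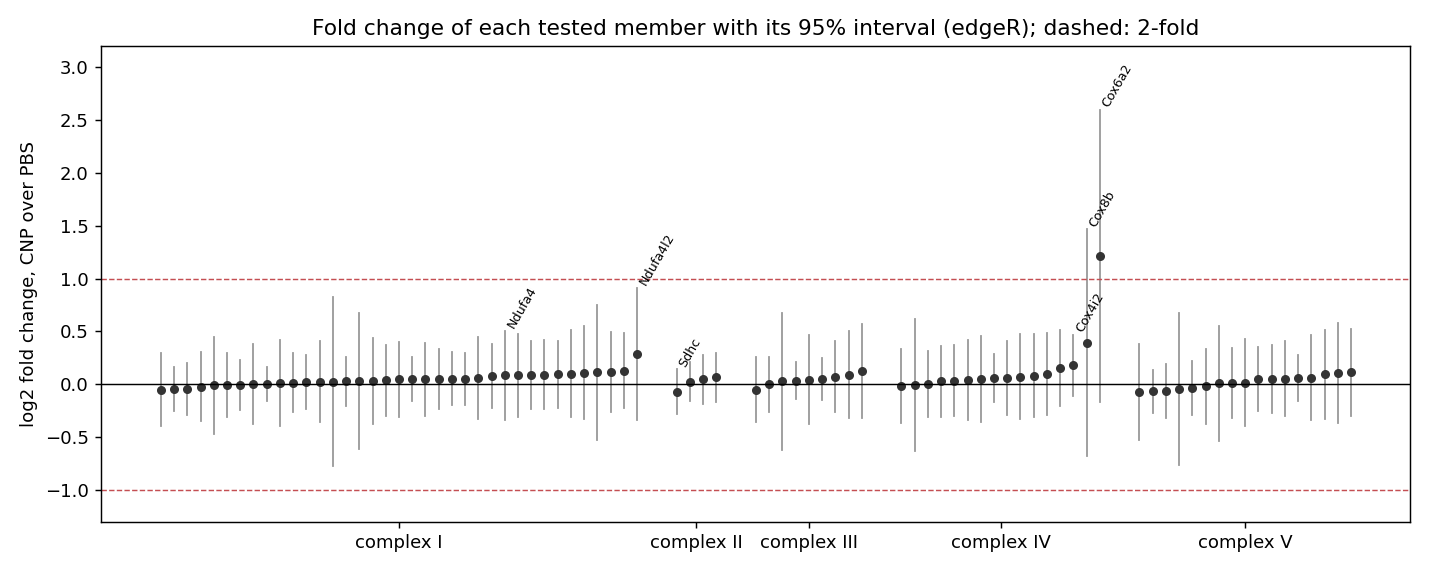
Log2 fold change (CNP minus PBS, edgeR) of each tested subunit by complex, with 1 point a gene and its 95% interval as a line. Every interval crosses 0, and those of Cox6a2 and Cox8b in complex IV are the widest.

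Summed over a complex, levels in both groups spread over the same range. The sum for complex I was 19144 ± 4999 CPM in PBS against 19953 ± 3259 in CNP. Complex II summed to 1040 ± 34.3 and 1046 ± 57.9, complex III to 4454 ± 1307 and 4593 ± 834, complex IV to 6129 ± 1341 and 6322 ± 909.9, and complex V to 8080 ± 1484 and 8166 ± 987 (SD, n = 5 each). The log2 ratios of these means ran from 0.009 in complex II to 0.060 in complex I, and every difference was smaller than the SD of either group. Complex I made up 49.1% ± 1.30 of the summed subunits in PBS against 49.7% ± 0.90 in CNP, and complex II 2.77% ± 0.53 and 2.65% ± 0.34.

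Subunits that carry redox centres or catalytic sites, and the nuclear subunits Cox4i1 and Cox5a of complex IV, showed the same picture. Ndufs1 (ENSMUSG00000025968), the large iron-sulfur subunit of complex I, had 98.6, 93.7, 84.5, 84.0 and 89.5 CPM in PBS 2, 6, 10, 14 and 18, and 99.1, 86.4, 81.3, 76.0 and 93.7 CPM in CNP 4, 8, 12, 16 and 20. The groups overlapped, and the log2 fold change was -0.04 (SE 0.10; unadjusted p = 0.649). Ndufv1, which binds the flavin that accepts electrons from NADH, had a log2 fold change of -0.05 (SE 0.16; unadjusted p = 0.747).

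Sdha (ENSMUSG00000021577) stayed within a narrow band, with 430.1, 474, 419.9, 428 and 448 CPM in PBS 2, 6, 10, 14 and 18, and 444, 441, 467, 456 and 431 CPM in CNP 4, 8, 12, 16 and 20. No library stood out, and its log2 fold change was 0.03 (SE 0.08; unadjusted p = 0.766). Its partner Sdhb (ENSMUSG00000009863) had 167, 203, 215, 216 and 188 CPM in PBS 2, 6, 10, 14 and 18, and 194, 201, 225, 232 and 181 CPM in CNP 4, 8, 12, 16 and 20. The highest Sdhb values were those of CNP 12 and CNP 16, the CNP and PBS ranges overlapped, and the log2 fold change was 0.06 (SE 0.11; unadjusted p = 0.558). Sdhc and Sdhd had log2 fold changes of -0.07 (SE 0.10) and 0.05 (SE 0.11).

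In complex III the Rieske iron-sulfur protein Uqcrfs1 had a log2 fold change of 0.05 (SE 0.09; unadjusted p = 0.615) and the haem protein Cyc1 one of -0.05 (SE 0.14; unadjusted p = 0.73). Uqcrq (ENSMUSG00000044894), a small subunit, varied far more, with 768, 965, 1076, 2447 and 1762 CPM in PBS 2, 6, 10, 14 and 18, and 1059, 978, 1889, 1685 and 1539 CPM in CNP 4, 8, 12, 16 and 20. PBS 14 was highest and PBS 2 lowest, so that the extremes were both control libraries, and the log2 fold change was 0.03 (SE 0.30; unadjusted p = 0.929). Uqcr10, the smallest p of the complex, had 0.13 (SE 0.20; unadjusted p = 0.548), and Uqcrb had 0.07 (SE 0.15; unadjusted p = 0.647).

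In complex IV, Cox4i1 (ENSMUSG00000031818) had 679.6, 645, 790.4, 1198 and 1029 CPM in PBS 2, 6, 10, 14 and 18, and 833, 662, 1025, 1065 and 900.0 CPM in CNP 4, 8, 12, 16 and 20. PBS 14 was again highest, the 2 groups overlapped, and the log2 fold change was 0.05 (SE 0.19; unadjusted p = 0.806). Cox5a, which contacts subunit 4, had 0.06 (SE 0.11; unadjusted p = 0.6) and Cox8a had 0.03 (SE 0.16; unadjusted p = 0.831). In complex V, Atp5b (ENSMUSG00000025393) had 1597, 1556, 1331, 1702 and 1579 CPM in PBS 2, 6, 10, 14 and 18, and 1725, 1254, 1431, 1521 and 1485 CPM in CNP 4, 8, 12, 16 and 20. Its highest and lowest values, CNP 4 and CNP 8, were both in the CNP group, and the log2 fold change was -0.07 (SE 0.12; unadjusted p = 0.588). The alpha subunit Atp5a1 had -0.03 (SE 0.12; unadjusted p = 0.777). Atp5d, the delta subunit of the central stalk and the smallest p of the complex, had -0.07 (SE 0.09; unadjusted p = 0.485).

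The subunit with the smallest p of all was Cox6a2 (ENSMUSG00000030785), which had 3.03, 1.90, 2.18, 2.42 and 1.95 CPM in PBS 2, 6, 10, 14 and 18, and 2.92, 2.01, 19.3, 2.14 and 2.98 CPM in CNP 4, 8, 12, 16 and 20. A single library, CNP 12, was high and the other 9 lay between 1.90 and 3.03 CPM, with 164 counts in all. Its log2 fold change was 1.21 (SE 0.64; unadjusted p = 0.0798, edgeR adjusted p = 0.9997) and was 0.11 without CNP 12. Of 12 markers of skeletal and cardiac muscle, the summed CPM was 229 in CNP 12 and 31.7 to 55.9 in the other 9 libraries, with Myh6 at 0 in all 10. Tnnc2, the calcium-binding troponin of fast muscle, had 55.4 CPM in CNP 12 and at most 2.49 elsewhere, and the muscle creatine kinase Ckm had 18.1 CPM and at most 1.99. Not every marker was raised: Actn3 had 0.602 CPM in CNP 12 and up to 0.976 elsewhere, and Tnni3 1.20 and up to 1.83. Mylpf alone had 17.7 to 41.1 CPM in the other 9 libraries, and 70.8 in CNP 12. The part of muscle RNA in the Cox6a2 value was not tested.

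The other muscle isoforms did not share that pattern. Cox8b (ENSMUSG00000025488) had 4.89, 4.67, 7.20, 22.3 and 17.6 CPM in PBS 2, 6, 10, 14 and 18, and 7.13, 8.04, 30.1, 12.9 and 13.9 CPM in CNP 4, 8, 12, 16 and 20. CNP 12 was highest here too, but PBS 14 and PBS 18 were next, and the 5 libraries numbered above 10 all exceeded the 5 numbered up to 10. Its log2 fold change was 0.39 (SE 0.50; unadjusted p = 0.444), and -0.05 without CNP 12. Cox7a1 had 14.7 to 37.5 CPM, with PBS 14 highest and CNP 12 next, and a log2 fold change of -0.01 (SE 0.29). Cox4i2 had 43.5 to 72.9 CPM and a log2 fold change of 0.18 (SE 0.13; unadjusted p = 0.205).

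**Figure D3:**
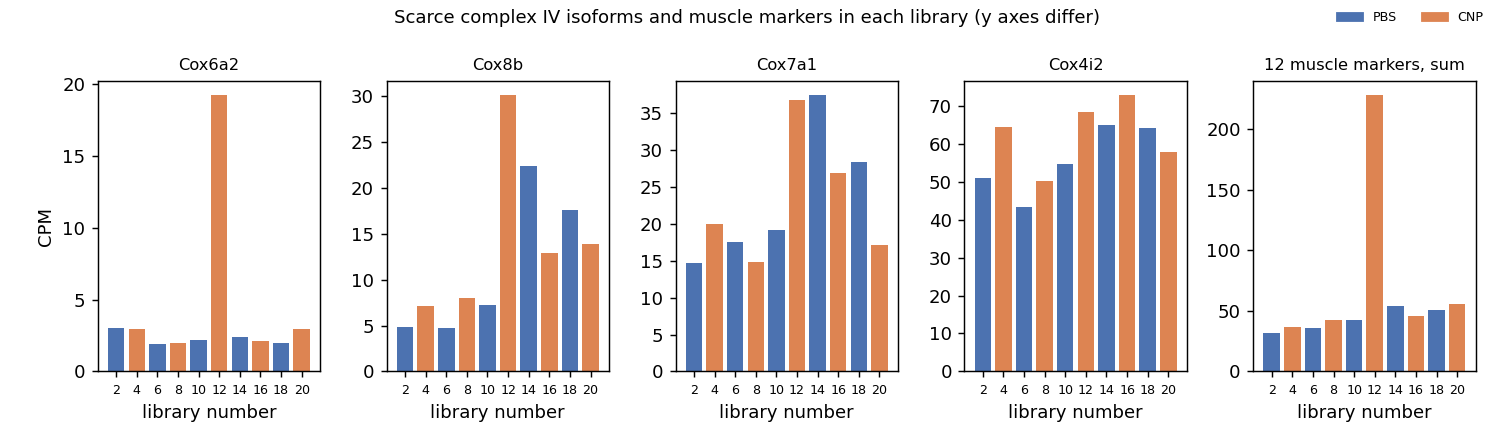
CPM of 4 scarce isoforms and the summed CPM of 12 muscle markers in each of the 10 libraries, in order of library number, with blue bars for PBS and orange bars for CNP (each panel has its own axis from 0). Cox6a2 (19.3 CPM) and the muscle markers (229 CPM) are high in CNP 12 alone, while Cox8b and Cox7a1 are also high in PBS 14.

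Differences between single libraries were much larger than those between groups. Summed over all subunits, the PBS libraries had 30306 CPM (PBS 2), 32255 (PBS 6), 35674 (PBS 10), 52479 (PBS 14) and 43520 (PBS 18). The CNP libraries had 36541 (CNP 4), 32088 (CNP 8), 45861 (CNP 12), 45851 (CNP 16) and 40063 (CNP 20). The 5 libraries numbered up to 10 therefore lay between 30306 and 36541 and the 5 numbered above 10 between 40063 and 52479, without overlap. The library number is only a label, not stated to be a batch, and this division of the libraries was known from earlier results of these data. The share of counts on library totals, without other scaling, was likewise 3.31% to 3.78% up to number 10 and 3.83% to 4.44% above it. The summed CPM also carry each library's TMM factor, a scaling on genes that differ little between libraries. That factor was 1.03 to 1.10 up to number 10 and 0.848 to 0.973 above it. A lower factor raises CPM, so the sets lay farther apart in summed CPM than in shares.

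The summed level of complex II varied far less. The coefficient of variation of the summed level over the 10 libraries was 20.5% for complex I, 22.9% for complex III, 17.4% for complex IV, 14.6% for complex V and 4.31% for complex II. Singly it was 3.95% for Sdha, 10.1% for Sdhb, 8.63% for Sdhc and 10.5% for Sdhd, which correlated little with each other (median r 0.17). Most subunits of other complexes had higher values, but low values were not confined to complex II. Ndufa9 (2.99%) was below Sdha. Uqcrc2 (5.18%), Ndufa8 (7.23%), Uqcrfs1 (7.48%), Atp5d (7.91%), Ndufs1 (8.56%) and Cox5a (8.57%) were below Sdhc. Atp5g3 (8.97%), Atp5b (9.86%), Ndufa10 (10.0%) and Ndufc2 (10.3%) were below Sdhd. The highest library exceeded the lowest by 1.86-fold in complex I, 1.99-fold in III, 1.61-fold in IV, 1.54-fold in V and 1.13-fold in II. Because PBS has 3 and CNP 2 libraries up to number 10, CNP was also compared with PBS within each set. The log2 ratio of all subunits was 0.07 up to number 10 (3 PBS, 2 CNP) and -0.13 above it (2 PBS, 3 CNP), so its sign differed between the sets. For complexes I to V in turn it was 0.08, 0.02, 0.07, 0.09 and 0.04 up to number 10, and -0.12, -0.02, -0.16, -0.14 and -0.13 above it.

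**Figure D4:**
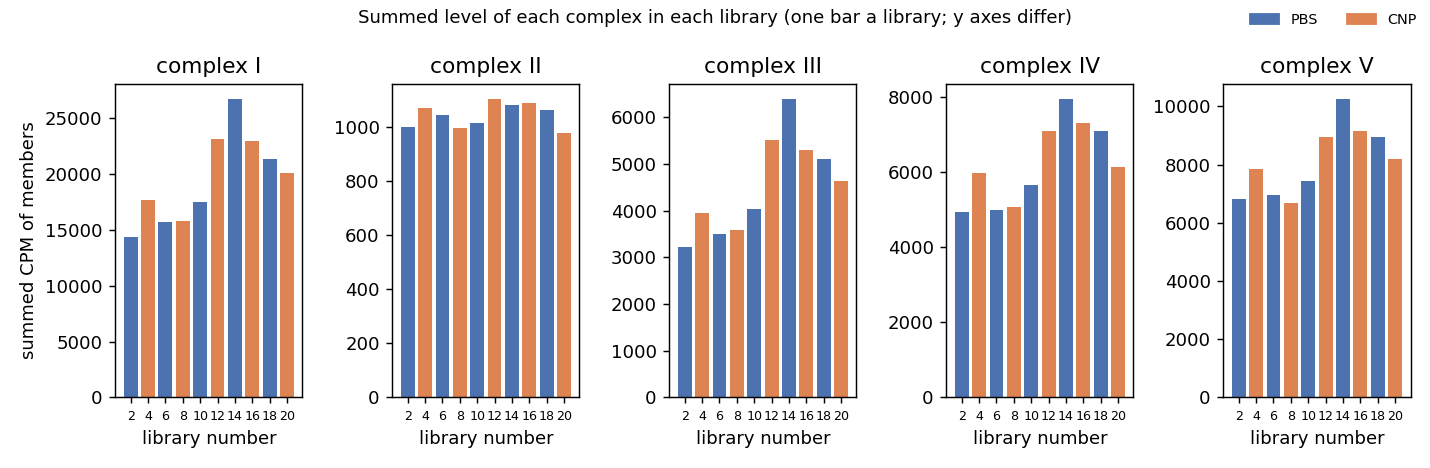
Summed CPM of each complex in each library, ordered by library number, with blue bars for PBS and orange bars for CNP (each panel has its own axis from 0). Complexes I, III, IV and V are higher in all 5 libraries numbered above 10 and peak in PBS 14, while complex II stays between 976 and 1104 CPM.

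Gene by gene, 41 of the 83 subunits were higher in every library numbered above 10 than in any numbered up to 10, and 0 were lower in every one. Of all genes, 1129 (9.82%) were higher and 1237 (10.8%) lower in that sense. The 41 were 20 of 37 subunits in complex I, 0 of 4 in II, 5 of 9 in III, 8 of 16 in IV and 8 of 17 in V. When counts were scaled by library totals only, 18 of 83 subunits and 397 genes (3.45%) separated, and without CNP 20 it was 57 of 83 subunits and 1421 genes (12.4%). Ndufb8 (ENSMUSG00000025204), a complex I subunit, spread most among the abundant ones, with 572, 671, 911, 2379 and 1537 CPM in PBS 2, 6, 10, 14 and 18, and 856, 735, 1682, 1467 and 1431 CPM in CNP 4, 8, 12, 16 and 20. PBS 14 had 4.16 times the level of PBS 2, and yet the log2 fold change between groups was 0.02 (SE 0.37; unadjusted p = 0.948). The narrowest was Ndufa9, an accessory subunit of complex I that binds a nucleotide cofactor, whose highest library exceeded the lowest by 1.09-fold, followed by Sdha at 1.13-fold and Uqcrc2 at 1.17-fold.

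The subunits rose and fell together over the libraries. Over the 10 libraries, the median Pearson r of log2 CPM between 2 subunits was 0.83 (3403 pairs), against 0.00 for all pairs of tested genes and -0.07 between subunits and other genes. Within complexes the median was 0.86 (964 pairs) and between complexes 0.82 (2439 pairs). By complex it was 0.88 in I (666 pairs), 0.87 in IV (120), 0.78 in III (36), 0.72 in V (136) and 0.17 in II (6). These correlations are descriptions over points that share library depth, scaling and group, and genes are not independent replicates. The median SD of log2 CPM over libraries was 0.26 for subunits and 0.27 for all tested genes. That SD includes counting noise, which is larger for scarce genes. The biological coefficient of variation from edgeR, which leaves counting noise out, had a median of 19.3% for subunits and 15.8% for all tested genes.

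The height of the correlations depended on scaling and on the 2 sets of libraries. With library totals in place of TMM (scaling on genes that differ little between libraries), the median was 0.60 within complexes and 0.47 between them, with 0.62, 0.25, 0.34, 0.61 and 0.44 in complexes I to V. After each gene was centred within libraries numbered up to 10 and above 10, it was 0.69 within and 0.65 between complexes. Centring within PBS and CNP left 0.87 and 0.82.

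The summed levels of complexes I, III, IV and V kept nearly the same order across libraries. Pearson r between their sums ran from 0.98 to 0.998 (I with III), with Spearman rho from 0.94 to 0.99, and from 0.97 to 0.995 without the 2 libraries farthest from the median. Complex II correlated with these 4 at 0.65 to 0.72 (rho 0.66 to 0.73, and 0.56 to 0.82 without 2 libraries). The 10 libraries fall into the 2 sets described above, so these values are descriptions and no p is given.

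**Figure D5:**
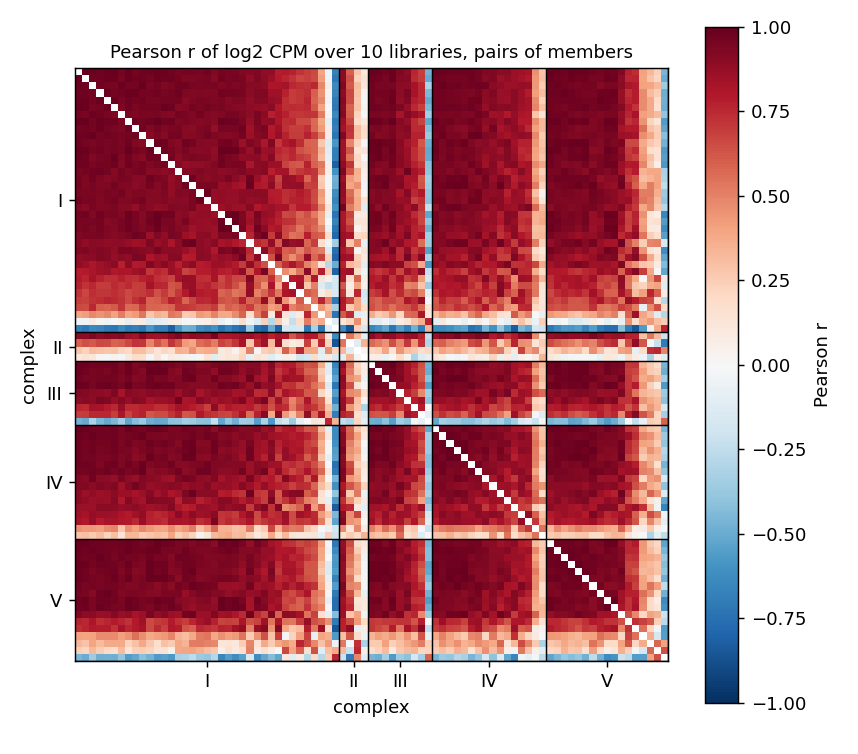
Pearson r of log2 CPM over the 10 libraries between each pair of the 83 tested subunits, grouped by complex and ordered within it by median r (both axes are genes; red is positive, blue negative and the diagonal is left white). Blocks I, III, IV and V are mostly dark red, the blue stripes at their edges are Ndufs1, Uqcrc2 and Atp5a1, and in complex II Sdhd alone is dark.

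Most subunits followed the common course, and a few did not. The median r of a subunit with the other 82 exceeded 0.8 for 59 of the 83. It was negative for 3, each a large subunit of a core or catalytic domain: Ndufs1 at -0.63, Atp5a1 at -0.39 and Uqcrc2 at -0.36. Ndufa9 at 0.03, Sdha at 0.05, Atp5b at 0.24, Sdhc at 0.29 and Atp5d at 0.38 also stood apart. So did the scarce transcripts Cox6a2 at 0.26, Ndufa4l2 at 0.39, Atp5g2 at 0.40 and Cox6b2 at 0.43. The highest values were those of the complex I subunits Ndufa2 (0.95), Ndufa6 (0.94) and Ndufs6 (0.94). Within complex II, Sdhd had 0.86 and Sdhb 0.56 with the subunits of all complexes, although the 4 subunits correlated little with each other.

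Coding length went with this division. Spearman rho between coding length and the median r was -0.37 over the 83 subunits, and between mean CPM and the median r 0.48. The median coding length was 411 bases for subunits and 1356 for other tested genes. The same held for genes outside oxidative phosphorylation: their median r with the summed subunits was 0.45 in the shortest of 4 equal bins of coding length (up to 837 bases), then -0.09, -0.32 and -0.37 in the bins of longer ones. In the same bins the subunits' own median r with that sum was 0.96 (69 subunits), 0.79 (5), 0.51 (8) and -0.62 (1, Ndufs1). The part of transcript length, RNA quality or cell makeup in the library differences was not tested.

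Other transcripts moved with the subunits. The summed CPM of rod genes had Pearson r 0.90 with the summed subunits (rho 0.90, and 0.88 without 2 libraries), and that of pigment epithelium genes r 0.91 (rho 0.90, and 0.90 without 2). For other retinal neurons and Mueller glia r was -0.10, for lens genes 0.04, for red blood cell genes 0.34, for muscle genes 0.54 and for endothelial and mural cell genes -0.41. With complex II, r of the rod sum was 0.49. The part of these cell types in the common course of the subunits was not tested.

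Genes that build or feed the complexes were taken from 5 lists, none of which had a member called in CNP against PBS with edgeR. Of 46 assembly factors and chaperones of the complexes, 45 were tested, with 37 log2 fold changes above 0 and 8 below and a median of 0.06. The most abundant, Coa3, which stabilises newly made subunit 1 of complex IV, had 899 ± 201 CPM in PBS and 936 ± 134 in CNP. The smallest p was that of Tmem70, a complex V assembly factor, with 56.8 ± 2.83 and 50.9 ± 5.63 CPM (log2 fold change -0.16, SE 0.10, unadjusted p = 0.121). The summed assembly factors followed the subunits closely, with Pearson r 0.99 (rho 0.98, and 0.98 without 2 libraries).

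Of the 13 subunits encoded by mitochondrial DNA, 8 were tested, with 7 fold changes above 0 and 1 below and a median of 0.07. The other 5 (mt-Nd4l, mt-Co2, mt-Co3, mt-Atp6 and mt-Atp8) were at 0 counts in every library, while mt-Co1 had 976 CPM in PBS and 1057 in CNP. The reason for these zeros was not tested, and they are not read as absence. The sum, which thus covers only the 8 tested, ranged from 8767 to 25499 CPM. It had Pearson r 0.98 with the nuclear subunits (rho 0.99, and 0.96 without 2 libraries). Cytochrome b, mt-Cytb, had 5332 ± 2605 CPM in PBS and 5343 ± 1624 in CNP. The smallest p of the list was that of mt-Nd6, a membrane subunit of complex I, with 14.6 ± 11.7 CPM in PBS and 25.2 ± 15.9 in CNP (log2 fold change 0.86, SE 0.52, unadjusted p = 0.125). Of the 17 tricarboxylic acid cycle genes tested, 6 fold changes were above 0 and 11 below (median -0.01), and r of the sum with the subunits was 0.63 (rho 0.62, and 0.62 without 2). Mdh2, the mitochondrial malate dehydrogenase, had 1087 ± 85.2 and 1077 ± 70.6 CPM, and Suclg2, a subunit of succinyl-CoA ligase with the smallest p of the list, 11.3 ± 0.96 and 9.53 ± 2.11.

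The list of 11 carriers and exchangers also holds the phosphate carrier Slc25a3, the porins Vdac1, Vdac2 and Vdac3, and Ndufab1. Ndufab1 is a complex I subunit whose symbol the pattern used here does not match. Of the 11, 7 fold changes were above 0 and 4 below (median 0.01). Their sum had r 0.69 to the subunits, which fell to 0.41 without CNP 8 and PBS 14. The ADP/ATP exchanger Slc25a4 had 2420 ± 213 CPM in PBS and 2393 ± 213 in CNP, and Etfdh, which passes electrons to ubiquinone, had a log2 fold change of 0.14 (SE 0.15). Of 14 regulators of mitochondrial transcription and biogenesis, 13 were tested, with 5 above 0 and 8 below (median -0.04). Their sum, 236 to 279 CPM, did not follow the subunits (r 0.09, rho 0.08). Gabpb1, a subunit of an ETS-family activator of respiratory genes, had 62.1 ± 2.82 and 62.3 ± 5.93 CPM, and Polrmt, the mitochondrial RNA polymerase, 5.84 ± 1.97 and 4.79 ± 1.16 (SD, n = 5 each).

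The promoters of these genes are known for a few shared motifs, which were looked for because the subunits moved together. RefSeq promoter sequence on GRCm38.p6, from 250 bases before to 50 after the start, was matched to 68 of the 89 symbols. A gene with several promoters was counted once, with a motif in any of them. The motif of NRF1 (GCGCATGC, either strand) was found for 10 of 68 subunits (14.7%) and for 3.05% of all 27025 genes with a promoter. The motif of YY1 (AAGATGGCG) was in 7 (10.3% against 1.64%), that of ETS factors (CCGGAAG) in 16 (23.5% against 9.93%) and that of oestrogen-related receptors (AAGGTCA) in 8 (11.8% against 5.38%). Among the 13978 of these genes with a count, the shares were 4.96%, 2.73%, 16.1% and 4.36%. At least 1 of the 4 was found for 31 subunits (45.6%), against 18.4% of all genes with a promoter. That pooled share was not worked out among genes with a count, where NRF1, YY1 and ETS matches were more frequent than among all. A match says only that the letters are present. Of the subunits that departed from the common course, Ndufa9 had a YY1 match, Sdhb NRF1 and ETS matches and the scarce Atp5g2 an NRF1 match. Sdha, Atp5b, Atp5d and the scarce Cox6b2 had no match to the 4 motifs. Ndufs1, Atp5a1, Uqcrc2, Sdhc and the scarce Cox6a2 and Ndufa4l2 were not matched to a promoter.

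The promoters below show 1 subunit from each complex, to place Sdhb of complex II, whose median r with other subunits was 0.56, beside 4 for which it was 0.91 (Ndufc1), 0.92 (Uqcr11), 0.81 (Cox6a1) and 0.92 (Atp5k). Capitals mark the matches. Ndufc1, of complex I, lies on the minus strand at chr3:51408906-51409205 and holds the YY1 motif after the start. Sdhb is on the plus strand at chr4:140961021-140961320, and Uqcr11, of complex III, on the minus strand at chr10:80406772-80407071, both with NRF1 and ETS matches. Cox6a1 is on the minus strand at chr5:115348909-115349208 with the same pair, and Atp5k on the minus strand at chr5:108434350-108434649 with NRF1, ETS and oestrogen-related receptor matches.
Ndufc1: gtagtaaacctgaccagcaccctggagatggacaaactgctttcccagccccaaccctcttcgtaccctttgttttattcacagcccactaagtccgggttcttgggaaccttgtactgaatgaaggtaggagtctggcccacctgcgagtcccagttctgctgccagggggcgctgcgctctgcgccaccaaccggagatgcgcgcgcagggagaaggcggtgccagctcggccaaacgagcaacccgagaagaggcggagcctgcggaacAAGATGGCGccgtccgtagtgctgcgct
Sdhb: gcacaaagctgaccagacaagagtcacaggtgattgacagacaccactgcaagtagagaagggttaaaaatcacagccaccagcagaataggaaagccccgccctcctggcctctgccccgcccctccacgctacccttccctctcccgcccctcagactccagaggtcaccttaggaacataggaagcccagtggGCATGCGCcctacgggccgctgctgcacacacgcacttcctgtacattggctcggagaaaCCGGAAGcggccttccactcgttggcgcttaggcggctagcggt
Uqcr11: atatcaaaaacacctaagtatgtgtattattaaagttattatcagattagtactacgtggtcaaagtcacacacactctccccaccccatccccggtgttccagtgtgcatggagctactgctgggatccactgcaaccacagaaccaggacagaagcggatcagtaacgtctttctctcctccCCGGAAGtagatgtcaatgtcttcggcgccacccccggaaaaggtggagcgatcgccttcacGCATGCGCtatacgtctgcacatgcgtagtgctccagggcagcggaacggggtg
Cox6a1: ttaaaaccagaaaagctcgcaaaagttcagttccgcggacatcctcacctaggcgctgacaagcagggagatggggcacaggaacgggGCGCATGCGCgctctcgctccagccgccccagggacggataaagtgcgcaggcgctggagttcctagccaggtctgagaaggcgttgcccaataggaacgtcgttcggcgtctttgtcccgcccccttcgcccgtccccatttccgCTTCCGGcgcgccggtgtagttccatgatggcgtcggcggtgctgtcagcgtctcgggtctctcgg
Atp5k: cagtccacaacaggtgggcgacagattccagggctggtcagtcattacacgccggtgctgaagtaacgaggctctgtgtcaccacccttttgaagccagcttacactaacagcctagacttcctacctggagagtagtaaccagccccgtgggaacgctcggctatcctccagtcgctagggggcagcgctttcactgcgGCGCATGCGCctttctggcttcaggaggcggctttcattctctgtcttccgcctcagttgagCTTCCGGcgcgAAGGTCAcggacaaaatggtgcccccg
Matches on the opposite strand appear as their reverse complement. In Cox6a1 and Atp5k the NRF1 letters occur on both strands and overlap each other.

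Some counts cannot be fully assigned. Stretches of at least 100 bases at 97% identity or more were shared with another annotated gene by 22 subunits, and with a pseudogene by 15. Atp5l shared such a stretch with 9 pseudogenes, which held 237 counts beside its own 6159, and Ndufa12 with 1, which held 373 beside 19278. Ndufb8 shares sequence with Gm20538. How reads in such stretches were counted is not stated in the sources used here, so the levels of these genes are less certain than those of the others.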

How the data were processed

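Polyadenylated RNA was reverse transcribed with barcoded primers carrying molecular identifiers (UMIs) and sequenced on a NovaSeqX Plus (per the labels' protocols). The submitters' processing notes name STAR, STARsolo and build GRCm39. Tool versions, annotation release, strand use and UMI collapsing are not stated in the sources used here. Uncollapsed UMIs would understate counting error. The authors deposited raw counts per Ensembl gene, and libraries were matched to columns by library name.

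Symbols matched 51880 of 57186 identifiers. Members and gene lists were chosen with earlier results of these data known. Named genes are, per complex, the 2 most and the 1 least abundant per kb and the smallest p; the isoform families; 10 subunits of redox or catalytic parts or, in complex IV, beside them; and the most abundant and smallest-p gene of each pathway list. Members named for their spread, their correlation or a printed promoter, and the muscle markers, were added after their values were seen.

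Counts were filtered with filterByExpr (minimum count 10, total 15; 11499 genes), scaled by TMM and compared with edgeR 4.0.16 in R 4.3.3 (quasi-likelihood, two-sided, Benjamini-Hochberg over all genes, threshold 0.05, no covariate). CPM is TMM-scaled; log2 CPM used a prior count of 2. Lengths are of the longest GENCODE M21 transcript (GRCm38); gene coordinates on GRCm39 are therefore not given. Shared sequence was found with blastn 2.17.0. The 20 library pairs within groups differed beyond counting noise (chi-square per degree of freedom 3.99 to 32.6). Alternatives were DESeq2 1.42.0, limma-voom (limma 3.58.1), 3 other scalings, no low-count filter, a library-number covariate, other lengths, centred or rank correlations and leaving out each library. The scripts were tested on simulated data.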

Additional observations from a re-analysis of the deposited data

Results flagged for a closer look

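The highest and lowest library of each group of 5 were checked against Dixon's 95% critical value in 82 groups of values. Chance alone flags about 1 in 20 groups, and 2 values stood apart here. Cox6a2 in CNP 12, at 19.3 CPM, lay far from the other CNP libraries, which had 2.01 to 2.98 CPM. Ndufa4l2, a hypoxia-induced paralogue of Ndufa4, had 12.1 CPM in CNP 16 against 4.47 to 6.21 in the other 4 CNP libraries.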

How the results depend on the processing

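Of 330 recomputed summary values 319 moved by less than their spread (for correlations the SD over gene pairs, which is wide). With library totals only, median correlations all fell except in complex II: they were 0.617, 0.247, 0.338, 0.608 and 0.435 in complexes I to V, 0.601 within and 0.472 between complexes, against 0.877, 0.173, 0.780, 0.872, 0.723, 0.861 and 0.815. The cause was not tested. Without division by length, median levels were 412 CPM (complex I), 245 (II), 395 (IV) and 437 (V). With the median transcript length they were 595, 265, 871, 935 and 642 CPM per kb in complexes I to V, and with non-structural proteins left out 435 in complex IV. No gene or subunit was called under any alternative fit. Leaving out each library in turn gave 0 called genes and 0 called subunits. Median log2 fold changes then ran from -0.03 to 0.16 in complex I, 0.00 to 0.06 in II, -0.02 to 0.16 in III, -0.01 to 0.19 in IV and -0.05 to 0.16 in V. The log2 ratios of summed CPM ran from -0.03 to 0.21, -0.01 to 0.03, -0.05 to 0.21, -0.03 to 0.16 and -0.04 to 0.12. The low ends for complexes I, III, IV and V came without PBS 2 and the high ends without PBS 14. Median correlations ran from 0.84 to 0.90, 0.07 to 0.34, 0.71 to 0.85, 0.85 to 0.89 and 0.64 to 0.82 in complexes I to V, 0.82 to 0.89 within complexes and 0.77 to 0.85 between them. Of 36 named subunits, 14 kept the sign of their fold change under all 18 alternatives. The sign count of fold changes and the count by library number were recomputed as alternatives chosen after seeing the data. No paired analysis was possible because the groups share no replicate number. Depth limits the scarce isoforms most.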
